A study of Mus musculus with 12 samples.

Results

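Integrin subunits, cadherins, Celsr genes and claudins were followed in the established mouse melanoma line B16-F10 after transfection with a forkhead transcription factor in 2 forms. Genes were taken by their symbol in the array's annotation: Itga or Itgb, Cdh or Cldn followed by a digit, Celsr, and the integrin chains Itgav, Itgae, Itgal, Itgam and Itgax. The rule found 76 of the 18193 genes on the array, namely 25 integrin subunits, 21 Cdh genes, 3 Celsr genes, 24 claudins and 3 genes of proteins that bind an integrin (Itgb1bp1, Itgb1bp2 and Itgb3bp). Those 3 share a name with the integrins but are no adhesion receptors. They are listed as a class of their own, and the counts of adhesion genes below include them.

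The first group carried FoxD3-VP16, a chicken FoxD3 whose C-terminal repression domain is exchanged for the transactivation domain of the viral protein VP16. The second carried chicken FoxD3 itself, and the third the empty vector pMES. All 3 vectors drive their product from the chick beta-actin promoter and make EGFP from the same transcript through an internal ribosome entry site. Cells that had taken up a vector were collected as EGFP-positive cells by flow sorting 24 h after transfection, with 4 arrays for each vector, numbered 1 to 4 in the labels. The transfection was transient and the transgene is made in 1 melanoma line, which limits what the groups stand for.

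Integrins are receptors for the extracellular matrix made of an alpha and a beta chain, and the pair decides which ligand is bound. Inside the cell they hold on to actin through focal adhesion proteins such as talin and paxillin. Classical cadherins join cells through calcium-dependent contacts and are anchored by catenins, while the Celsr proteins are large atypical cadherins of planar cell polarity and axon guidance. Claudins form the seal of tight junctions in epithelia. Melanocytes leave the neural crest as single cells, and loss of E-cadherin with gain of N-cadherin and of the alpha v beta 3 integrin is well known in melanoma.

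Of the 5 adhesion genes that changed in at least 1 comparison, RefSeq's promoter table (build GRCm38.p6) held a start for Itga4, Celsr3 and Cdh10. Their 250 bases before the start are shown because FoxD3 is a DNA-binding protein of the forkhead family. General forkhead letters were looked for in these stretches. The sequences are, on the plus strand, chr2:79255176-79255425 for Itga4, chr9:108825795-108826044 for Celsr3 and chr15:18820079-18820328 for Cdh10, with each CG pair in capitals.
Itga4: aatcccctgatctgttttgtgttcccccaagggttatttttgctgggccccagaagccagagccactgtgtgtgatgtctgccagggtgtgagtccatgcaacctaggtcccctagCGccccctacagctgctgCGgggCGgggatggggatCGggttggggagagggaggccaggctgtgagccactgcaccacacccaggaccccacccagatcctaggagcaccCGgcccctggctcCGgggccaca
Celsr3: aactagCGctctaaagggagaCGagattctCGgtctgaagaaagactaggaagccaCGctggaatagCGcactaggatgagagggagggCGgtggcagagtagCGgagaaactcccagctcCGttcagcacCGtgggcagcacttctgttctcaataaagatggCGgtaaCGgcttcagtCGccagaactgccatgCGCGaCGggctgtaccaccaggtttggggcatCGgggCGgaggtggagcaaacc
Cdh10: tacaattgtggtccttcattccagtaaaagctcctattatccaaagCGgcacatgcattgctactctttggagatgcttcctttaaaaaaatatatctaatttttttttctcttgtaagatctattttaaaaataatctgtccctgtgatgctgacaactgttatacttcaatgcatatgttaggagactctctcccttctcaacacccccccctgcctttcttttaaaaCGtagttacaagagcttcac
The stretch of Celsr3 holds 17 CG pairs, more than 76.5% of the 32851 mouse promoters in the table. That of Itga4 holds 6, the median of all promoters, and that of Cdh10 holds 2, with 18.8% of promoters below it. The forkhead letters TGTTTAC were searched on both strands over 300 bases, together with the form ending in GC, written TGTTTGC, and the forms with A in the second place, namely TATTTAC as well as the alternative TATTTGC. All 4 share the letters TTT and cannot lie at the same place. They were in 0 of the 3 promoters and in 13.5% of all promoters. This says only that these letters are not in these windows. A sequence particular to FoxD3 was not searched. By RefSeq's gene coordinates Cdh10 begins upstream of its window, which therefore lies at a start inside the gene. Cdh19 and Itgb3 are named without a sequence.

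Levels are given as log2(intensity + 16) after quantile normalization, and differences as log2 changes of that quantity, in which changes of dim genes come out too small. Genes in the lowest 40% by mean, below a level of 5.98, were not tested. This left 26 adhesion genes of 10916 tested genes: 15 integrin subunits, 3 Cdh genes, 2 Celsr genes, 4 claudins and 2 integrin-binding genes. A gene is called changed where limma's Benjamini-Hochberg adjusted p over all 10916 genes was under 0.05. The other 50 adhesion genes were dim and are described by their levels.

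Most cadherins and claudins of epithelia, and most leukocyte integrins, were among the dim genes. The 20 untested claudins had means of 4.37 to 5.64, among them Cldn1 of the skin barrier (5.17) and Cldn11 of myelin (4.81). The 18 untested Cdh genes lay between 4.45 and 5.92, among them the vascular Cdh5 (5.18), the T-cadherin Cdh13 (5.65) and the P-cadherin Cdh3 (5.70). E-cadherin, Cdh1, which ties melanocytes to keratinocytes, averaged 5.92. The 10 untested integrin subunits had means of 4.70 to 5.83 and include the leukocyte chains Itgal, Itgam, Itgax, Itgb2 and Itgb7. Of the leukocyte chains in the rule, Itgae passed the limit (6.64 over the 12 arrays). Of the tested genes, Celsr3 lay below the limit in 2 groups, and Cdh10, Itga3 and Itgb2l in 1 group.

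**Figure D1:**
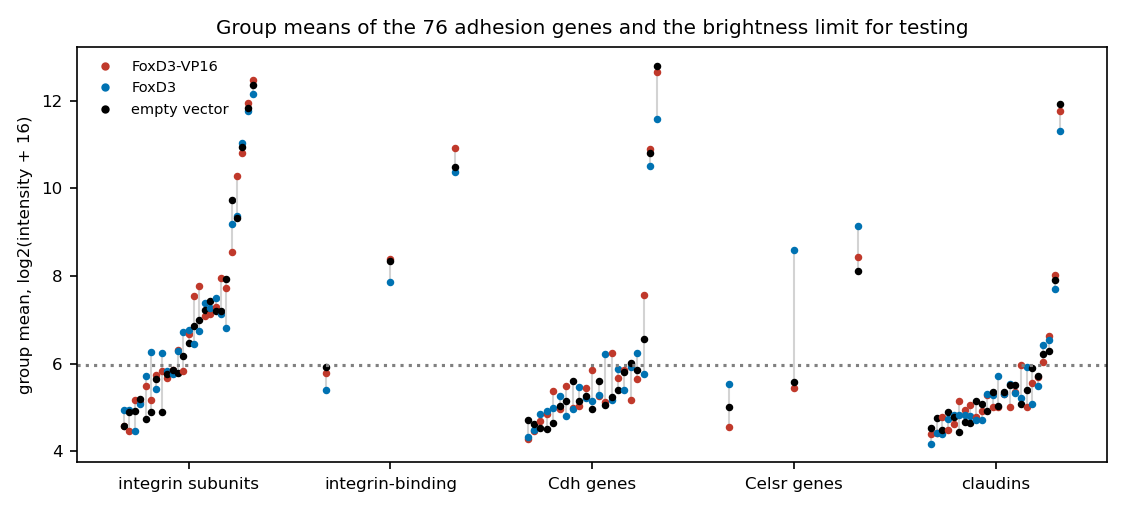
Group means of log2(intensity + 16) for the 76 genes, ordered by mean within each family, in FoxD3-VP16, FoxD3 and empty-vector cells (n = 4 arrays each), with grey lines joining the 3 means of a gene. The dotted line is the limit of 5.98; 20 of 24 claudins and 18 of 21 Cdh genes lie below it by their mean over all arrays.

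The sorted cells carried the melanocyte markers of the line, with 10 of 10 above the limit. Of these 10, limma called 3 with FoxD3 (Sox10 higher, Mitf and Rab38 lower) and Sox10 alone with FoxD3-VP16 (lower), both against the empty vector; with FoxD3-VP16 over FoxD3 Mitf and Tyr were higher and Sox10 lower. Summed intensity of the 8 endothelial markers was 349 to 449 in FoxD3-VP16 cells, 553 to 641 in FoxD3 cells and 460 to 603 in empty-vector cells, so the FoxD3-VP16 arrays lay below both other groups; 2 of the 8 were tested (Vwf and Egfl7), limma called 0 in all 3 comparisons, and with the block both were lower in FoxD3-VP16 than in FoxD3 cells, while Pecam1, Tek and Tie1 were dim. Summed intensity of the 8 fibroblast markers was 809 to 1153 in FoxD3-VP16 cells, 1114 to 1397 in FoxD3 cells and 431 to 615 in empty-vector cells; Pdgfrb passed the test with both constructs and Col1a1 with FoxD3, while Col3a1, Dcn, Lum and Thy1 were dim. Their part in the results below was not tested. The arrays numbered 1 stood apart in all groups: their Gapdh 3' minus 5' difference was 0.56 to 0.77 in log2, against -0.25 to 0.04 on the other 9. The level of the hybridization control probe sets also followed the number. It was 14.53 to 14.75 on number 1, 12.89 to 13.07 on number 2, 11.81 to 11.98 on number 3 and 11.82 to 11.89 on number 4. Arrays with the same number deviated together, so a fit that takes the number as a block is given where it moves a count or a call.

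FoxD3 against the empty vector asks which adhesion genes respond to the factor itself. The atypical cadherin Celsr3 rose 7.98-fold and the neural crest and glial cadherin Cdh19 fell 2.31-fold. These were 2 of the 26 tested genes (7.69%), against 4.01% of all 10916 tested genes (2.89% higher and 1.12% lower). The median log2 change of the 26 was -0.10, against -0.00 over all genes. Celsr3 passed the brightness limit only through its FoxD3 arrays, with means of 8.59 there, 5.45 with FoxD3-VP16 and 5.59 with the empty vector. Its place in this count therefore rests on the group where it was high. Of the integrin subunits and of the claudins, 0 were called by limma (adjusted p), with 1 of 15 and 0 of 4 at an unadjusted p under 0.05. With the number as a block 6 of 26 passed (23.1%, against 21.0% of all genes), 2 higher and 4 lower (11.8% and 9.21% of all genes), so the share is near that of all genes. Without the integrin-binding genes 5 of 24 passed with the block (20.8%). In RNA of many sorted cells, fewer cells that make a transcript and less of it per cell cannot be told apart.

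Celsr3 stood at 8.69, 8.30, 8.73 and 8.63 on the FoxD3 arrays numbered 1 to 4, against 5.24, 5.23, 6.24 and 5.64 on the empty-vector arrays. Every FoxD3 array lay above every empty-vector array, and the empty-vector mean was below the brightness limit. The means were 8.59 ± 0.19 and 5.59 ± 0.48 (SD, n = 4 each), a log2 change of 3.00 (95% confidence interval 2.25 to 3.74, adjusted p = 0.000502). Over the 24 alternatives in which it was tested, the change ran from 2.15 to 3.53 and passed in all 24, the highest adjusted p being 0.00401. Without the 3 arrays numbered 1 it was 3.03 (adjusted p = 0.00137).

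Its relative Celsr2, another core planar polarity protein, had levels of 9.59, 9.10, 8.86 and 9.05 with FoxD3, against 8.67, 8.54, 7.57 and 7.69 with the empty vector. The arrays of both groups did not overlap, as for 3 of the 26 genes and 11.5% of all tested genes. The log2 change of 1.03 (SE 0.28) missed the threshold without the block (adjusted p = 0.0614) and passed with it (adjusted p = 0.000844). Celsr1, the member of the trio found in epithelia, was dim, with 6.0, 5.86, 5.74 and 4.57 in FoxD3 cells and 4.17, 5.96, 5.17 and 4.73 in empty-vector cells.

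Cdh19, a type II cadherin of Schwann cell precursors, had levels of 11.73, 11.97, 11.37 and 11.28 in FoxD3 cells, against 13.36, 12.70, 12.59 and 12.54 in empty-vector cells. All 4 FoxD3 arrays lay below all 4 empty-vector arrays. The log2 change was -1.21 (SE 0.23, adjusted p = 0.0109), and it passed in 25 of 25 alternatives, with a highest adjusted p of 0.0495 when FoxD3 array 4 was left out. Without the 3 arrays numbered 1 it was -1.03 (adjusted p = 0.0140). N-cadherin, Cdh2, the main classical cadherin of melanoma cells, had 10.83, 10.31, 10.47 and 10.44 with FoxD3 and 11.34, 10.77, 10.57 and 10.57 with the empty vector. It was lower in all 4 same-numbered pairs by 0.10 to 0.51, but the groups overlapped and neither fit called it (log2 change -0.30, adjusted p = 0.520, and 0.0807 with the block). Cdh10, a type II cadherin of the brain, was at 5.79, 6.45, 5.93 and 4.90 with FoxD3 and at 5.50, 7.29, 6.76 and 6.74 with the empty vector, a change of -0.81 that did not pass (adjusted p = 0.401).

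Among the integrins, the chains of the common matrix receptors were not called. Itgav, the alpha v chain, was at 12.12, 12.06, 12.16 and 12.27 in FoxD3 cells, against 12.58, 11.99, 12.34 and 12.54 in empty-vector cells, and its change of -0.21 had a confidence interval of -0.56 to 0.14. Itgb1, the beta chain shared by most matrix integrins, had 12.04, 11.40, 11.89 and 11.70 with FoxD3, against 12.27, 11.51, 11.70 and 11.85 with the empty vector, and an interval of -0.55 to 0.39. For the laminin receptor chain Itga6 the interval was -0.26 to 0.46, and for the fibronectin receptor chain Itga5 it was -0.90 to 1.20. These intervals come from the fit without the block and leave room for changes of either sign. With the block the SE was smaller, 0.09 against 0.22 for Itgb1 and 0.21 against 0.49 for Itga5. These chains were not called with the block either.

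Itga4, whose pair with Itgb1 binds fibronectin and Vcam1, had 9.05, 9.37, 9.07 and 9.25 with FoxD3, against 9.12, 10.29, 9.88 and 9.62 with the empty vector. The groups overlapped through array 1 of the empty vector, and the change of -0.55 did not pass without the block (adjusted p = 0.228) and passed with it (adjusted p = 0.0355). Without the 3 arrays numbered 1, and with no block, it was -0.70 and passed (adjusted p = 0.0498). Over 25 alternatives the change of Itga4 ran from -0.75 to -0.30 and passed in 4, with a limma adjusted p up to 0.662. Itgb8, which with the alpha v chain activates latent TGF-beta, had 6.21, 6.33, 7.20 and 7.49 in FoxD3 cells and 7.29, 6.10, 9.32 and 8.98 in empty-vector cells. Its change of -1.12 did not pass in either fit (adjusted p = 0.385, and 0.0799 with the block), and the empty-vector arrays had an SD of 1.5.

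Cldn12, a claudin without the usual PDZ-binding tail, had 10.34, 11.89, 11.49 and 11.48 in FoxD3 cells, against 11.17, 12.25, 11.98 and 12.30 in empty-vector cells. It was lower in 4 of 4 numbered pairs, by 0.36 to 0.83. Its log2 change of -0.62 did not pass without the block (adjusted p = 0.436) and passed with it (adjusted p = 0.0026), and without the 3 arrays numbered 1 and with no block it was -0.54 (adjusted p = 0.0488). A second probe set of Cldn12 gave -0.93 and passed without the block where every probe set was tested on its own (adjusted p = 0.018). The other tested claudins, Cldn15 (interval -0.71 to 1.25), Cldn22 and Cldn34c1 (interval -0.73 to 0.33), did not pass in either fit. Itgb3bp, a centromere protein named for its binding to the beta 3 chain, passed with the block and in no other alternative (-0.49, adjusted p = 0.310, and 0.0450 with the block).

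Of the 50 dim genes, tested without a brightness limit over 18193 genes, 0 were called by limma, against 1.92% of the 18193, and 3 had an unadjusted p under 0.05. They were Cdh15 of muscle, the leukocyte beta chain Itgb2 and the hemidesmosome chain Itgb4. Itgb2 was at 6.68, 6.36, 5.95 and 6.0 in FoxD3 cells, against 4.54, 5.21, 4.79 and 5.02 in empty-vector cells (adjusted p = 0.0525, and 0.0180 with the block). Itgb4 was at 6.29, 6.68, 6.05 and 6.0 in FoxD3 cells, against 4.55, 5.69, 5.09 and 4.25 in empty-vector cells (adjusted p = 0.0802, and 0.0232 with the block). Both were higher on all 4 FoxD3 arrays, at levels close to the limit. Cdh1 too was higher on every FoxD3 array, at 6.04, 6.11, 6.26 and 6.60, against 6.02, 6.02, 5.94 and 5.49 with the empty vector. Its log2 change of 0.39 was not called (limma adjusted p = 0.743, and 0.564 with the block). With the block 2 of 50 passed, against 10.9% of the 18193 genes. Beside Itgb2, the summed intensity of the 9 leukocyte markers was 331 to 4868 in FoxD3 cells and 230 to 1208 in empty-vector cells, 3 of the 9 were above the limit, the defining marker Ptprc averaged 4.99 with FoxD3 and 4.93 with the empty vector, and their part in the result was not tested.

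**Figure D2:**
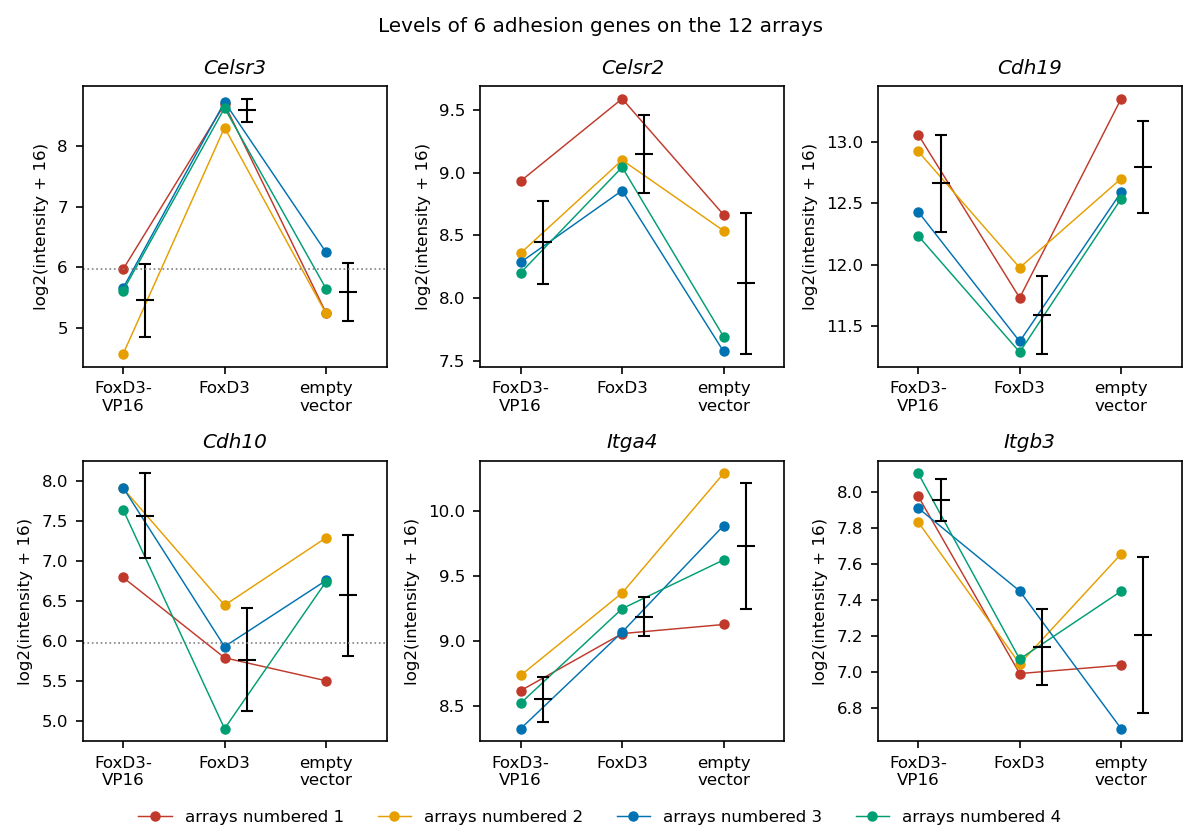
Level, as log2(intensity + 16), of 6 adhesion genes on each of the 12 arrays, with a colour and a line for each replicate number and black bars for mean ± SD (n = 4). Dotted lines mark the limit of 5.98 where it falls in a panel. Celsr3 sits between 8.30 and 8.73 on the FoxD3 arrays and at 6.24 or below on all others, while Cdh19 sits at 11.97 or below on the FoxD3 arrays and at 12.24 or above on all others.

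The partners of these receptors were read from 4 lists, chosen with earlier results of these data known. Their counts beside the share of all genes are therefore description only. Of 29 listed focal adhesion proteins 25 were tested, and 2 rose with FoxD3: the adaptor paxillin, Pxn (log2 change 1.03, adjusted p = 0.00569), and zyxin, Zyx (0.69, adjusted p = 0.0406), where 4.01% of all tested genes were called. The median of that list was 0.20, against -0.00 over all genes; those of the ligands, the catenins and the tight junction partners were 0.22, -0.09 and 0.01. Zyx passed in 11 of 25 alternatives and Pxn in 24 of 25. Of 14 integrin ligands the laminin chain Lama4 fell (-1.03, adjusted p = 0.00264), and Tgfb1, whose latent form is held by alpha v integrins, rose (1.24, adjusted p = 0.0395, passing in 10 of 24 alternatives). Of 13 catenins and cadherin partners, Ctnnd1, the p120 catenin that binds the tail of classical cadherins, fell (-0.69, adjusted p = 0.0307), and its relative Arvcf rose (1.16, adjusted p = 0.0261). Each lost its call in 9 alternatives, Ctnnd1 only where 1 array was left out. Of 15 tight junction partners limma called 0, with 3 at an unadjusted p under 0.05. With the block 8 of 25 focal adhesion proteins, 5 of 14 ligands, 5 of 13 cadherin partners and 3 of 15 tight junction partners passed, against 21.0% of all tested genes.

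FoxD3-VP16 against the empty vector sets the activating form against the same controls. The one adhesion gene called was Itga4, which fell 2.27-fold; the cadherins, Celsr genes and claudins had 0 calls by limma, with 1, 0 and 0 of them at an unadjusted p under 0.05. This was 1 of 26 tested genes (3.85%), against 0.595% of all tested genes (0.522% higher and 0.0733% lower), so a single gene makes up the share. The median log2 change of the 26 was 0.10, against -0.02 over all genes. With the block 3 of 26 passed (11.5%, against 11.1% of all genes), 2 higher and 1 lower (5.73% and 5.41% of all genes), again a share near that of all genes. Without the integrin-binding genes 2 of 24 passed with the block (8.33%).

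Itga4 was at 8.62, 8.73, 8.32 and 8.52 on the FoxD3-VP16 arrays, against the 4 empty-vector values from 9.12 to 10.29 given above. The groups did not overlap, and the means were 8.55 ± 0.17 and 9.73 ± 0.49 (SD, n = 4 each). The log2 change was -1.18 (SE 0.22, adjusted p = 0.0316, and 0.00116 with the block). Of its other 4 probe sets, 2 gave -0.78 and -0.62 and the remaining 2 gave 0.10 and -0.09. Averaged over its probe sets the change was -0.51 and did not pass (adjusted p = 0.549). The call was also lost when any array was left out other than FoxD3 arrays 1 and 2 and empty-vector array 1 (adjusted p 0.0506 to 0.147 in these 9), and held without the 3 arrays numbered 1 (-1.42, adjusted p = 0.00656).

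Itgb5 and Itgb3, beta chains that pair with alpha v, stood above the empty vector on all 4 FoxD3-VP16 arrays without passing the threshold in the fit without the block. Itgb5, the vitronectin receptor chain, had 10.71, 10.26, 9.97 and 10.23 in FoxD3-VP16 cells, against 9.92, 9.62, 8.86 and 8.93 in empty-vector cells. Its log2 change of 0.96 did not pass without the block (adjusted p = 0.213) and passed with it (adjusted p = 0.000679); without the 3 arrays numbered 1 and with no block it was 1.02 (adjusted p = 0.0481). All 4 probe sets of Itgb5 were higher, by 0.84 to 1.34. Itgb3, the beta 3 chain, had 7.98, 7.83, 7.91 and 8.10 with FoxD3-VP16, against 7.04, 7.66, 6.69 and 7.45 with the empty vector, a change of 0.75 (adjusted p = 0.252, and 0.0591 with the block). Itga4, Itgb5 and Itgb3 were the 3 genes of 26 without overlap in this comparison, against 5.71% of all tested genes. Itgb1bp1, a cytoplasmic protein that binds the beta 1 tail, had 10.69, 11.08, 11 and 10.88 with FoxD3-VP16, against 10.30, 10.98, 10.36 and 10.36 with the empty vector, and passed with the block (0.42, adjusted p = 0.410, and 0.0214 with the block).

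Celsr3 and Cdh19, the genes that changed with FoxD3, had changes of -0.14 (confidence interval -0.89 to 0.60) and -0.13 (-0.64 to 0.37) with FoxD3-VP16. For Celsr3 both means were below the brightness limit (5.45 with FoxD3-VP16, 5.59 with the empty vector), which leaves little room to see a fall. Celsr3 was at 5.96, 4.56, 5.65 and 5.61 on these arrays and Cdh19 at 13.06, 12.93, 12.43 and 12.24, and both overlapped the empty-vector arrays. Cdh10 had 6.80, 7.91, 7.92 and 7.64 and was higher than with the empty vector in 4 of 4 numbered pairs (change 1.00, adjusted p = 0.448, and 0.0672 with the block). The chains Itgav (0.12, interval -0.23 to 0.47) and Itgb1 (0.13, interval -0.34 to 0.60) were not called. Among the 50 dim genes 0 were called by limma without a brightness limit, against 0.258% of the 18193 genes, and 4 had an unadjusted p under 0.05 (Cdh3, Cdh9, Cdh26 and Itgb2). With the block 0 of the 50 passed, against 5.23% of the 18193 genes.

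Of the partners, 2 of 14 integrin ligands rose with FoxD3-VP16, where 0.595% of all tested genes were called. As the lists were chosen with earlier results known, such shares are description only. Periostin, Postn, a matrix protein bound by alpha v integrins, averaged 10.32 ± 0.28 in FoxD3-VP16 cells and 8.11 ± 0.44 in empty-vector cells (SD, n = 4 each; log2 change 2.21, adjusted p = 0.00312). The laminin chain Lamb1 averaged 10.58 ± 0.67 in FoxD3-VP16 cells and 8.92 ± 0.32 in empty-vector cells (1.66, adjusted p = 0.0232), and lost its call in 5 of 25 alternatives. Among focal adhesion proteins, catenins and tight junction partners limma called 0 genes, with 0, 3 and 0 at an unadjusted p under 0.05, and with the block 2 of 25, 2 of 13 and 0 of 15 passed. With the block 5 of 14 ligands passed, and 11.1% of all tested genes. The medians of the 4 lists lay between 0.01 and 0.20.

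**Figure D3:**
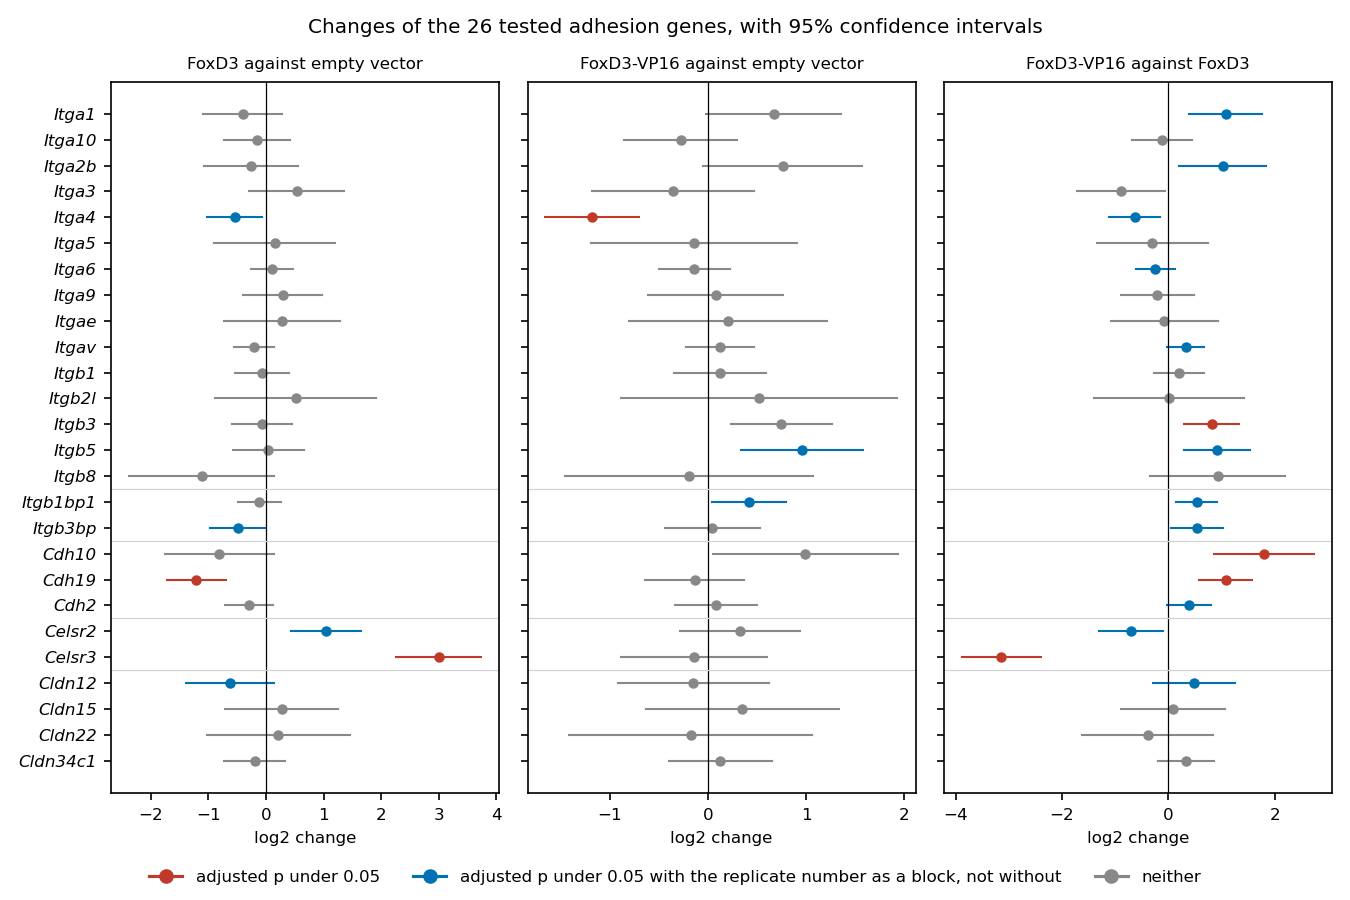
Log2 changes of the 26 tested genes in the 3 comparisons, with 95% confidence intervals from limma; the 3 panels have their own scales. Red marks an adjusted p under 0.05, blue a gene that missed the threshold until the replicate number was a block in the fit, and grey lines part integrin subunits, integrin-binding genes, Cdh genes, Celsr genes and claudins. Celsr3 lies at 3.00 in the left panel and at -3.14 in the right one.

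FoxD3-VP16 against FoxD3 sets the activating form against the factor with its own C-terminal part; it shares its arrays with both comparisons above, and the values are set side by side for that reason. Cdh19, Cdh10 and Itgb3 were higher with FoxD3-VP16 and Celsr3 was 8.82-fold lower. These were 4 of 26 tested genes (15.4%), against 9.57% of all tested genes (4.44% higher and 5.13% lower), and 9 of 26 did not overlap, against 18.2%. The median log2 change was 0.27, against -0.03 over all genes. Celsr3 was among the 26 only through its FoxD3 arrays, as described above. With the block 15 of 26 passed (57.7%, against 32.0% of all genes), 11 higher and 4 lower (14.6% and 17.5% of all genes). Without the integrin-binding genes 13 of 24 passed with the block (54.2%), and the median log2 change was 0.14.

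For Celsr3 the FoxD3-VP16 arrays, from 4.56 to 5.96, all lay below the FoxD3 arrays, from 8.30 to 8.73, and the log2 change was -3.14 (SE 0.34, adjusted p = 0.000159). It passed in 24 of 24 alternatives, with changes from -3.82 to -2.21. Cdh19 was higher by 1.07 (SE 0.23, adjusted p = 0.0114), by 0.95 to 1.33 in each of the 4 numbered pairs, and passed in 25 of 25 alternatives. Without the 3 arrays numbered 1 the changes were -3.45 for Celsr3 (adjusted p = 0.000295) and 0.95 for Cdh19 (adjusted p = 0.00996). Celsr2, at 8.93, 8.36, 8.29 and 8.20 with FoxD3-VP16, was lower than with FoxD3 in 4 of 4 pairs (-0.70, adjusted p = 0.147, and 0.00592 with the block). Its second probe set, which was dim, gave 0.02.

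Cdh10 averaged 7.57 ± 0.53 with FoxD3-VP16 and 5.77 ± 0.64 with FoxD3 (SD, n = 4 each), 3.49-fold higher (log2 change 1.80, SE 0.44, adjusted p = 0.0199), and the FoxD3 mean was below the brightness limit. The call was lost without FoxD3 array 4 or without FoxD3-VP16 array 2, 3 or 4, up to an adjusted p of 0.0706, and held without the 3 arrays numbered 1 (2.20, adjusted p = 0.00325). Its other 3 probe sets were dim and gave 0.67, -0.57 and 0.32. Cdh2, at 11.11, 10.66, 11.06 and 10.77 with FoxD3-VP16, was higher in 4 of 4 pairs (0.39, adjusted p = 0.262, and 0.0197 with the block). Both of its probe sets gave nearly the same change. The E-cadherin gene Cdh1, untested by its mean over all arrays, was at 5.53, 5.76, 5.19 and 6.10 with FoxD3-VP16 and 6.04, 6.11, 6.26 and 6.60 with FoxD3, and the groups overlapped.

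Itgb3 averaged 7.96 ± 0.11 with FoxD3-VP16 and 7.14 ± 0.21 with FoxD3 (SD, n = 4 each), a change of 0.82 (SE 0.24) close to the threshold (adjusted p = 0.0489). It passed in 10 of 24 alternatives, 3 of them among the 12 that leave out an array, and not without the 3 arrays numbered 1 (adjusted p = 0.0678). Its second probe set was dim and gave 0.80. The alpha chains Itga2b and Itga1 did not overlap between the groups, missed the threshold without the block and passed with it. They also passed in other alternatives without the block, and in 7 of 24 alternatives in all for Itga2b and 10 of 24 for Itga1. Without the 3 arrays numbered 1 the changes were 0.91 for Itga2b (adjusted p = 0.0147) and 1.09 for Itga1 (adjusted p = 0.0345). Itga2b, which pairs with Itgb3 in platelets, had 7.68, 7.73, 7.95 and 7.69 with FoxD3-VP16, against 6.11, 7.06, 7.04 and 6.77 with FoxD3 (1.02, adjusted p = 0.117, and 0.0115 with the block). Itga1, a collagen receptor chain, had 7.13, 8.0, 7.17 and 7.84 with FoxD3-VP16, against 5.81, 6.81, 6.73 and 6.49 with FoxD3 (1.08, adjusted p = 0.0506, and 0.00521 with the block). With the mean of its 2 probe sets the change of Itga1 was 0.32 and did not pass (limma adjusted p = 0.585).

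Itgb5 was higher in 4 of 4 pairs by 0.72 to 1.10 (0.92, adjusted p = 0.0623, and 0.00013 with the block), and 1 of its other probe sets passed without the block where each was tested on its own (1.26, adjusted p = 0.045). Itgav, with 12.41, 12.17, 12.82 and 12.54 in FoxD3-VP16 cells, was higher by 0.33 (adjusted p = 0.247, and 0.0252 with the block). The chains Itga4 (-0.64, adjusted p = 0.0941, and 0.0114 with the block) and Itga6 (-0.24, adjusted p = 0.443, and 0.0452 with the block) were lower. Over 25 alternatives the change of Itga4 ran from -0.71 to -0.21 and passed in 6, with a limma adjusted p up to 0.709. Itgb1 was not called in either fit (0.20, adjusted p = 0.664, and 0.0872 with the block). Itgb1bp1 (0.53), Itgb3bp (0.54) and Cldn12 (0.48) missed the threshold without the block and passed with it, and all 3 passed with array quality weights. A second probe set of Cldn12 gave 0.89 and passed without it (adjusted p = 0.012 with each probe set on its own). Of the 50 dim genes limma called 0 without a brightness limit, against 4.74% of the 18193 genes, 4 had an unadjusted p under 0.05 (Cdh9, Cdh15, Celsr1 and Itgb4), and Itgb4 alone passed with the block (adjusted p = 0.0496), against 17.4% of the 18193 genes.

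**Figure D4:**
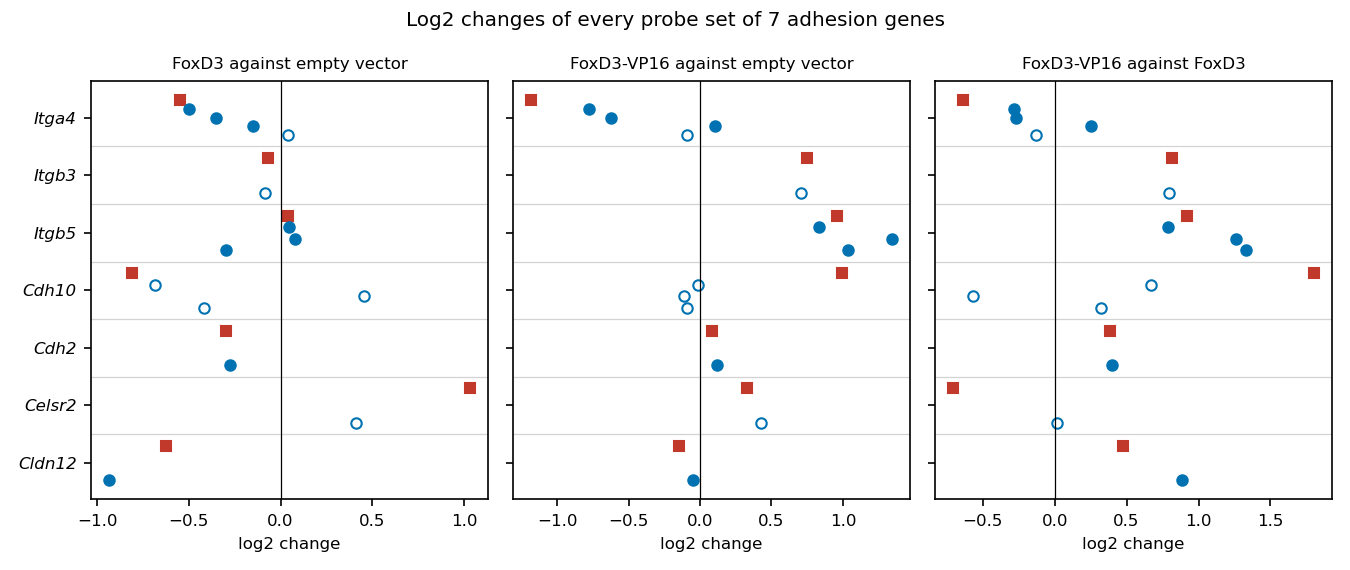
Log2 changes given by every probe set of 7 adhesion genes in the 3 comparisons, on separate scales. Red squares are the probe sets taken, blue circles the others, and open symbols have a mean below 5.98. All 4 probe sets of Itgb5 lie between 0.84 and 1.34 for FoxD3-VP16 against the empty vector, while the 5 of Itga4 run from -1.18 to 0.10.

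Among the partners, 4 of 14 integrin ligands rose with FoxD3-VP16 over FoxD3 and 2 fell, where 9.57% of all tested genes were called. Here too the list was chosen with earlier results known, so the share is description only. Postn was higher by 2.42 (adjusted p = 0.000187), Lamb1 by 1.60 (adjusted p = 0.00324), Lama4 by 0.96 (adjusted p = 0.00187) and fibronectin, Fn1, by 0.84 (adjusted p = 0.0279). The laminin chain Lama5 averaged 7.53 ± 1.44 with FoxD3-VP16 and 9.73 ± 0.15 with FoxD3 (-2.20, adjusted p = 0.034), and Tgfb1 averaged 6.03 ± 0.28 with FoxD3-VP16 and 7.65 ± 0.55 with FoxD3 (-1.61, adjusted p = 0.00498; SD, n = 4 each). Fn1 lost its call in 8 of 25 alternatives and Lama5 in 5 of 24. Of the cadherin partners, Ctnnd1 averaged 10.53 ± 0.30 with FoxD3-VP16 and 9.16 ± 0.09 with FoxD3 (1.37, adjusted p = 0.000215) and passed in 25 of 25 alternatives.

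Of the focal adhesion proteins, Fyn, a Src family kinase, rose (0.75, adjusted p = 0.0262), while Pxn (-0.84, adjusted p = 0.0108) and Zyx (-0.77, adjusted p = 0.0131) fell. Fyn lost its call in 4 of 25 alternatives, each without 1 array (up to an adjusted p of 0.0847). Zyx lost it in 3, without FoxD3 array 3 or 4 and with the mean of all probe sets (-0.42, adjusted p = 0.353), while Pxn kept it in 25 of 25. Pard6b, a polarity protein of tight junctions, was the 1 called gene of 15 tight junction partners (-1.67, adjusted p = 0.00741). The medians of the 4 lists lay between -0.09 and 0.03, against -0.03 over all genes. With the block 12 of 25 focal adhesion proteins, 6 of 14 ligands, 3 of 13 cadherin partners and 3 of 15 tight junction partners passed, against 32.0% of all tested genes.

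**Figure D5:**
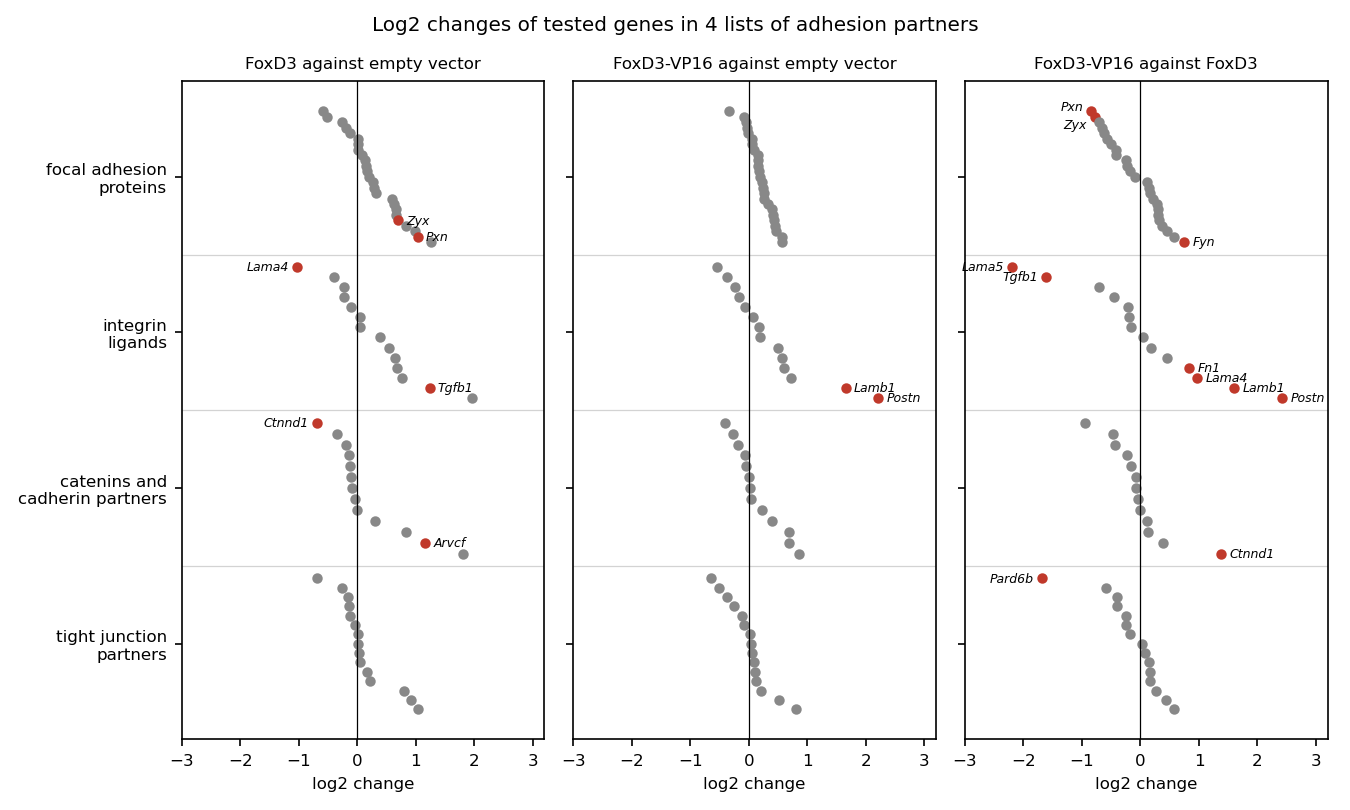
Log2 changes of the tested genes in 4 lists of adhesion partners, each point a gene, ordered within its list. Red points with names have a limma adjusted p under 0.05; in FoxD3-VP16 against FoxD3, Postn lies at 2.42 and Lama5 at -2.20.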

How the data were processed

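RNA of B16-F10 cells was measured on 12 one-colour arrays of 45101 probe sets, 4 for each vector, grouped by the sample titles. The authors deposited a linear intensity for each probe set; MAS5 is named per the submitters' processing notes, with no version named, and per the labels the authors used dChip. The mean intensity without the outer 2% of probe sets on each side was 500.003 to 500.004 on every array, and the precision is limited by the number of arrays. Separate cultures are not stated for the replicates, so p-values reflect the spread among these arrays, which could be technical.

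Control probe sets (64) were left out. Log2(intensity + 16) was quantile normalized, since medians spanned 0.79 in log2 over the deposited intensity values. Gene symbols came from the platform annotation (34945 probe sets with 1 symbol, 932 with several, 9160 not listed); several-symbol probe sets name no gene here. The probe set with the highest mean was taken for each of 18193 genes, and the lowest 40% were left out. Mouse Foxd3 averaged 4.71; the transgene is a chicken sequence, so this does not check the labels.

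The tool was limma 3.58.1 (R 4.3.3; lmFit, eBayes with trend), fitted over all 12 arrays without a block, with Benjamini-Hochberg adjustment over 10916 genes, 9 residual and 3.98 prior degrees of freedom. Deviations from group means correlated at 0.37 to 0.67 in all 12 same-numbered pairs of arrays and at -0.51 to 0.12 in 30 pairs of other numbers, with 0.37 to 0.54 in the 6 pairs joining 3 and 4; the numbers were taken to pair the samples, from these correlations and not from the labels. The block fit had 6 and 7.30 degrees of freedom. The test was checked on simulated data. Alternatives changed the pseudocount, filter, normalization, probe set choice, arrays fitted, array weights and block, and left out each array, or all numbered 1.

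The genes and the lists of partners and markers were chosen with earlier results of these data known. Named were genes called in a comparison; the 3 brightest per family and all Celsr genes; a set list of integrins, cadherins and claudins; up to 8 genes per comparison passing with the block and not without it; and up to 4 called genes per partner list. Other genes are named where a count is small, after their values were seen. Promoters and gene identifiers are RefSeq's (GRCm38.p6; 76 of 76 genes matched by gene ID). Plots used matplotlib 3.10.9 in Python 3.11.15.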

Additional observations from a re-analysis of the deposited data

Results flagged for a closer look

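In each group of 4 arrays it was asked whether the highest or lowest array stood apart, by its gap to the nearest array divided by the group's whole range. The 49 genes examined were the tested adhesion genes, dim ones of the set list and the called partner genes. Of their 147 sets, 14 had an array apart, where chance gives about 5% of sets.

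Of these, 6 involved arrays numbered 1. Postn was low on FoxD3-VP16 array 1 (0.866) and on FoxD3 array 1 (0.845). Itga6 (0.875) was low on FoxD3-VP16 array 1, while Itgb2l (0.886) and Cldn34c1 (0.95) were high there. The leukocyte chain Itgal was low on FoxD3 array 1 (0.842).

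Fyn was high on array 2 of all 3 groups, with ratios of 0.955 in FoxD3-VP16, 0.91 in FoxD3 and 0.913 in empty-vector cells. Itgb1bp1 was high on empty-vector array 2 (0.921). Empty-vector array 4 was high for Tgfb1 (0.885) and Zyx (0.852) and low for Cdh1 (0.846). Itgb7 was high on FoxD3 array 4 (0.885).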

How the results depend on the processing

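The alternatives were run on 43 log2 changes, those of adhesion and partner genes called without the block and of adhesion genes called with it. Of these, 0 changed direction, and the other named genes were not run. Some single probe sets had the opposite sign in a comparison, among them ones of Itga4, Cdh10 and Celsr2. The fit with the replicate number as a block, the pairing seen in the arrays, raised the adhesion genes called to 6 in FoxD3 against empty vector, 3 in FoxD3-VP16 against empty vector and 15 in FoxD3-VP16 against FoxD3, where the fit without it called 2, 1 and 4. With the block and without the arrays numbered 1, an alternative chosen after seeing the data, they were 6, 4 and 14. Array quality weights gave 10, 8 and 16, and leaving out the 3 arrays numbered 1 gave 5, 2 and 7. With the lowest 60% of genes left out, where 9 adhesion genes were tested and Celsr3 was not, the first comparison had 1 and the last had 1. In FoxD3-VP16 against empty vector the mean of all probe sets and the fit on the 8 arrays compared both called 0 by limma, with 3 and 4 at an unadjusted p under 0.05. In FoxD3-VP16 against FoxD3 the 8 arrays compared gave 7, and the values as deposited gave 7. Leaving out 1 array at a time gave 2 to 3, 0 to 1 and 2 to 8. Over all tested genes the block called 2297, 1217 and 3498 genes, against 438, 65 and 1045 without it, array weights 4193, 3465 and 4455, and the arrays without number 1 870, 277 and 1815; the block on those arrays called 1991, 1439 and 3355. Without the lowest 60% the first comparison had 274 genes and the last had 801 (11% of 7277). In the second, the 8 arrays compared gave 20 and the mean of all probe sets 63 (0.577%). In the last, the 8 arrays compared gave 1058 (9.69%) and the values as deposited 1074 (9.84%). Leaving out 1 array gave 197 to 555, 13 to 82 and 602 to 1214. The cause of these shifts was not tested. Dim genes are limited by signal near background.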
